A study of Mus musculus with 16 samples.

Results

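The genes that flank *Akt1*, the gene of PKBα, on mouse chromosome 12 were followed in thymocytes of *PKBα*-/- mice and their wild-type littermates. The set held 39 genes chosen by symbol and position, 26 before and 13 after *Akt1* in the RefSeq order of assembly GRCm38.p6, of 18194 genes with a probe set of their own. A probe set of its own symbol was found for 38 of them, and *Traf3* was not analysed here. The 38 genes had 69 probe sets of the 45101 on the array. For each gene the probe set with the greatest mean log2 value over the 16 arrays was used, irrespective of any difference between groups.

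PKBα is a serine and threonine kinase that acts downstream of phosphatidylinositol 3-kinase, in a family that promotes survival, growth and nutrient use in thymocytes. For thymocyte subsets that lack PKBα alone, the paper reports proliferation, apoptosis and cell size without apparent change. Genes next to a targeted locus can carry sequence of the embryonic stem cell strain, because linked DNA is inherited together with the targeted allele through a backcross. A deletion or an inserted cassette can also alter the transcription of neighbouring genes. The measured neighbours include a cell death adaptor, a Notch ligand, motor and cytoskeletal proteins, chromatin factors and metabolic enzymes.

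DN3 cells, the CD4- and CD8-negative precursors that express CD25, and ISP8 cells, the later immature cells that carry CD8 alone, were sorted from 4 *PKBα*-/- mice and 4 wild-type littermates. Each of the 8 mice gave 1 Affymetrix array per subset, so that each group held 4 arrays. Pair 1 was female and 5 weeks old, pair 2 male and 2 weeks old, pair 3 male and 3 weeks old, and pair 4 female and 3 weeks old. All mice are labelled as a C57Bl/6 backcross and the knockout was constitutive, without any agent applied. The number of backcross generations, the stem cell strain and the exact extent of the deleted sequence are not given in the sources used here. Every *PKBα*-/- mouse carried the targeted allele together with its linked DNA, and loss of PKBα, local effects of the targeted allele and linked strain differences cannot be told apart in this design. ISP8 and DN3 arrays also had separate runs of array numbers, so that the subset and the order of the arrays cannot be told apart.

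The cells matched their labels by the transcripts of CD25 and CD8. *Il2ra*, which encodes CD25, had a mean GC-RMA value of 8133 in wild-type DN3 and 185 in wild-type ISP8 cells, and *Cd8a* had 208 and 5152. From DN3 to ISP8 in wild-type mice, 8 of 9 DN3 markers passed lower (limma), where 17.3% of all probe sets did. Of 6 ISP8 markers 3 passed higher, where 11.6% did, and *Cd27* passed lower with a log2 change of -0.66. *Ccr9*, *Cd4* and the DN3 marker *Nrarp* did not pass, with -0.02, 2.06 and -0.17. No tested marker of DN3, ISP8, mature T, B, myeloid, erythroid, innate or stromal cells passed the test between genotypes in either subset. Few of all probe sets did so (0.0383% in DN3 and 0.0147% in ISP8 cells), so that this does not show equal composition. In DN3 cells *H2-Aa* had 51.9 to 124 in wild-type and 144 to 381 in *PKBα*-/- mice. *Krt8* had 29.9 to 69.7 against 6.42 to 17.5. In ISP8 cells *Il7r* had 766 to 1257 against 638 to 748. *Ccr9* had log2 differences of -0.62 and -0.48 (limma, adjusted p = 0.0760 and 0.197) in DN3 and ISP8 cells. They were picked by their values. The DN3 marker sum was 62520 to 72168 in wild-type and 63062 to 68434 in *PKBα*-/- DN3 cells, and the ISP8 marker sum was 32615 to 40928 and 31502 to 39920 in ISP8 cells. Within the DN3 sum, *Notch1* and *Rag1* had means of 24329 and 17668 in wild-type DN3 cells. Within the ISP8 sum, *Mki67* alone had a mean of 24211 in wild-type ISP8 cells. The sums thus say little about the lower markers. Spearman's correlation between arrays was 0.911 to 0.931 within DN3 and 0.901 to 0.916 within ISP8 cells. The log2 signal of the actin control probes at the 3′ end over the 5′ end, a measure of RNA integrity, was higher in *PKBα*-/- ISP8 cells by 0.24 in 4 of 4 pairs and differed by -0.17 in DN3 cells. The GAPDH control differed by 0.10 in ISP8 and -0.07 in DN3 cells, and was higher in 2 of 4 pairs of each subset. The subsets also differed, with a mean actin log2 signal of 2.90 in wild-type DN3 and 2.25 in wild-type ISP8 cells. The GAPDH control had 1.88 and 1.82. The part of RNA integrity in the values below, between genotypes or from DN3 to ISP8, was not tested.

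The promoters of 3 neighbours are shown because the first pair lies closest to *Akt1* on either side and the third belongs to the gene with the smallest p between genotypes in ISP8 cells. Each is the 250 bases before a RefSeq start site of assembly GRCm38.p6, on the plus strand, and *Siva1* lies at chr12:112644578-112644827, *Zbtb42* at chr12:112678590-112678839 and *Tmem121* at chr12:113185653-113185902. Capitals mark each GGGCGG, the core of a GC box, and each CACCTG, an E box, with their reverse complements CCGCCC and CAGGTG.
Siva1: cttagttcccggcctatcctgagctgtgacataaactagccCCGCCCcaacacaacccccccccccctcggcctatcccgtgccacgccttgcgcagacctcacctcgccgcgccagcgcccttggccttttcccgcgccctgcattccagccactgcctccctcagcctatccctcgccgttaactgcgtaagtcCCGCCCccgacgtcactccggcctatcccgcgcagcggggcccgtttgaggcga
Zbtb42: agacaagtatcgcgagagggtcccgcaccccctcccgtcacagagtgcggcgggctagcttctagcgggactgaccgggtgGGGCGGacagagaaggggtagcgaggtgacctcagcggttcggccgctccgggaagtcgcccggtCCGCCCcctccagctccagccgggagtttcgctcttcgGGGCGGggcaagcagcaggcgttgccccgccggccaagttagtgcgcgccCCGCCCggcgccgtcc
Tmem121: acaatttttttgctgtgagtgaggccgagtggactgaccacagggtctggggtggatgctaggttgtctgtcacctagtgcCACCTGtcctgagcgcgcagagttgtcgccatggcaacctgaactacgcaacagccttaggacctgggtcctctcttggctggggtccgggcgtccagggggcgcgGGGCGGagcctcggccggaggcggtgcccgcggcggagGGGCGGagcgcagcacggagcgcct

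The *Siva1* window held 24 CG dinucleotides and 2 matches to GGGCGG, the *Zbtb42* window 30 and 4, and the *Tmem121* window 20 and 2. The median over all 32851 RefSeq windows of this length was 6 CG dinucleotides. Only the *Tmem121* window of the 3 held CACCTG, once. Promoter windows were found for 37 of the 39 neighbours, 44 windows in all. GGGCGG was present in 35 of these 44 windows (79.5%) and in 32.7% of all windows, and CACCTG in 11 of 44 (25.0%) and in 17.2% of all windows. All windows were taken whatever the type or expression of the gene, and a gene could have several, so that the 2 shares are not of like genes. Their difference was not tested. In the 3 windows shown no match of one motif overlapped one of the other, and the matches describe the sequence only.

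The targeted gene was measured first, as a check of the labels. In wild-type DN3 cells *Akt1* had GC-RMA values of 1198, 1635, 2007 and 1324 in pairs 1 to 4, against 27.3, 2.01, 3.37 and 5.18 in *PKBα*-/- littermates. In ISP8 cells the values were 1969, 2211, 2069 and 1628 against 6.41, 4.87, 6.81 and 5.02. The groups did not overlap in either subset, and the *PKBα*-/- arrays lay near the bottom of the scale, with pair 1 highest in DN3 cells. All but 1 of the *PKBα*-/- values lay under 20, the level of the filter, so that the size of the difference depends on background values. The log2 difference, *PKBα*-/- minus wild-type, was -8.08 in DN3 (limma, adjusted p = 6.2e-08) and -8.42 in ISP8 cells (adjusted p = 4.6e-09), and -5.77 and -6.26 with 20 added before the log2 step. Of the other 3 *Akt1* probe sets, 1425711_a_at also fell, with log2 differences of -5.40 in DN3 and -5.74 in ISP8 cells (limma, adjusted p = 0.00791 and 0.0107). The probe set 1440950_at had differences of -1.85 and -1.94 with adjusted p of 0.281 and 0.308, and 1442759_at was too low to be tested. With robust moderation the main *Akt1* probe set had an adjusted p of 0.0700 in DN3 cells (limma).

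None of the neighbours passed the test between genotypes. In DN3 cells 34 neighbours were tested and 0 had an adjusted p under 0.05 (limma), where 0.0383% of all probe sets tested passed. In ISP8 cells 33 were tested and 0 passed, against 0.0147% of all probe sets. At an unadjusted p under 0.05, 0 neighbours were counted in DN3 cells (4.83% of all probe sets) and 1, *Tmem121*, in ISP8 cells (6.08% of all probe sets). When both subsets of a mouse were averaged, 0 of 33 passed (0.041% of all probe sets), and *Tmem121* and *Jag2* had an unadjusted p under 0.05 (4.9% of all probe sets). The methods' t-test gave 0 neighbours at an unadjusted p of up to 0.05 in either subset, beside 4.38% of all probe sets in DN3 and 5.32% in ISP8 cells.

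The differences were small and lay on both sides of zero. In DN3 cells 21 neighbours were higher and 13 lower in *PKBα*-/- mice, with a median log2 difference of 0.03, beside -0.01 over 1 probe set of each gene tested. In ISP8 cells 18 were higher and 15 lower, with a median of 0.05, beside 0.01 over all genes. The medians of the single pairs were 0.05, 0.07, -0.08 and -0.06 in DN3 cells. Those of ISP8 cells were 0.01, 0.01, -0.06 and 0.02. Of the 32 neighbours tested in both subsets, 12 had the same sign in DN3 and ISP8 cells. The spread of the estimates allows a bound on the change of most neighbours. The 95% interval of the genotype difference lay within 1.5-fold in either direction for 22 of 34 in DN3 and 19 of 33 in ISP8 cells, where 53.5% and 48.0% of all genes did. It lay within 2-fold for 25 and 28, where 66.3% and 62.5% of all genes did, so that a change above 2-fold is inside the interval of 9 neighbours in DN3 and 5 in ISP8 cells.

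**Figure D1:**
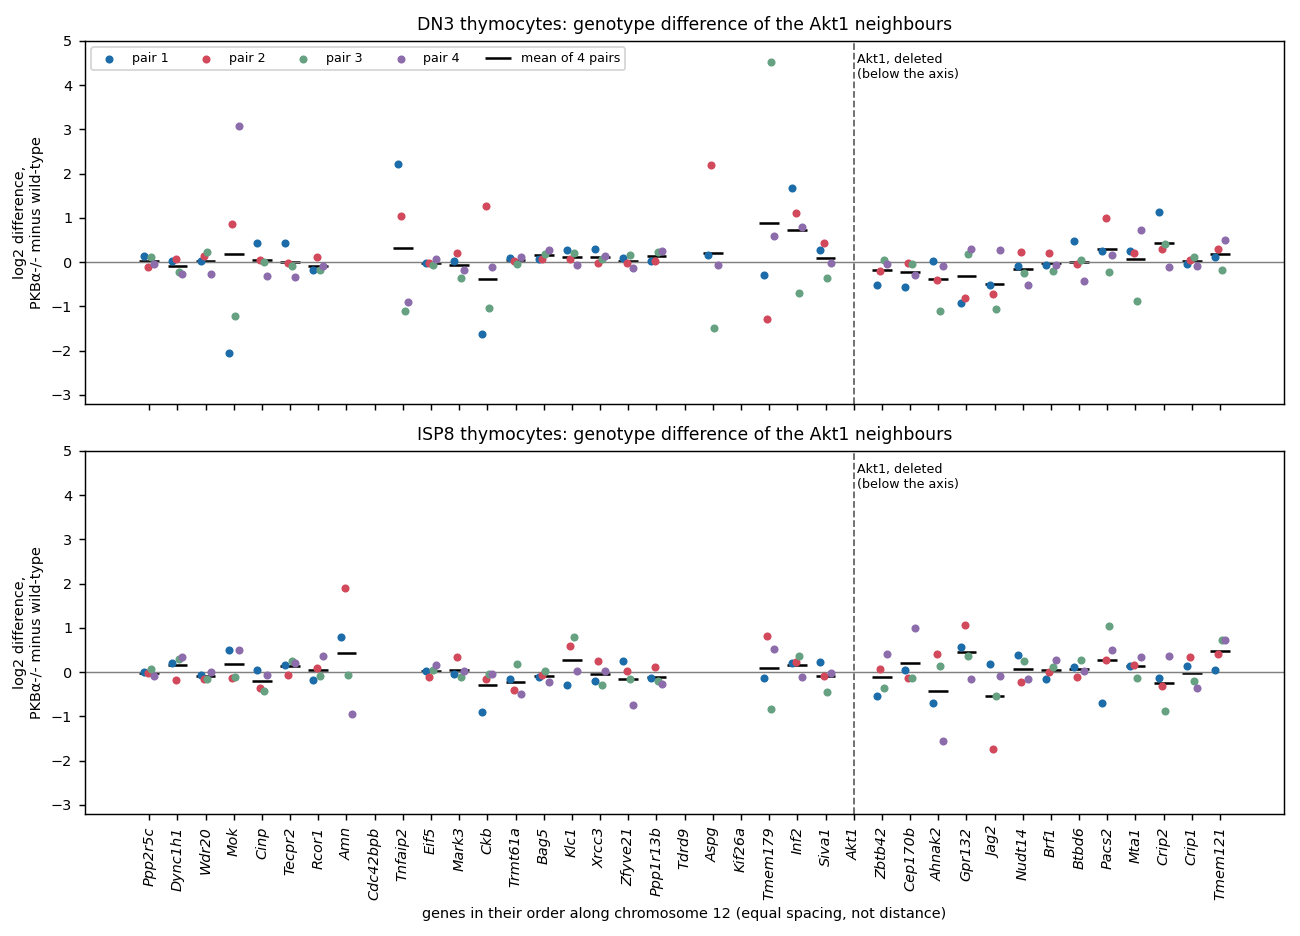
Genotype difference of each tested neighbour, *PKBα*-/- minus wild-type in log2 GC-RMA units (vertical axis), by gene order along chromosome 12 (horizontal axis, equal spacing), for DN3 (upper) and ISP8 cells (lower). Points are the 4 littermate pairs, black bars their mean, genes without points were not tested, and *Akt1*, at -8.08 and -8.42, lies below the axis; the means of the neighbours ran from -0.51 to 0.88 in DN3 and from -0.54 to 0.48 in ISP8 cells.

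The same direction in 4 of 4 pairs was seen for 3 neighbours in DN3 cells (12.5% of all probe sets) and for 2 in ISP8 cells (14.7% of all probe sets). In DN3 cells *Bag5* and *Ppp1r13b* were higher and *Cep170b* lower in every *PKBα*-/- littermate. In ISP8 cells *Tmem121* was higher and *Ckb* lower in every pair. None kept 1 direction in all 8 differences, which 1.11% of all probe sets did. The genotype groups did not overlap for 0 neighbours in DN3 (1.74% of all probe sets) and for 1, *Tmem121*, in ISP8 cells (2.91%).

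The closest neighbours of *Akt1* with a member on either side were *Siva1* and *Zbtb42*. *Siva1*, which encodes an adaptor of CD27 that promotes apoptosis, had 3824, 4761, 6575 and 5282 in wild-type DN3 cells and 4651, 6447, 5115 and 5209 in *PKBα*-/- DN3 cells. In ISP8 cells the values were 6599, 8345, 9057 and 8046 against 7691, 7798, 6614 and 7938. The genotype groups overlapped in both subsets, with pair 3 lower in both *PKBα*-/- samples and pair 1 higher in both. The fold between genotypes was 1.06 in DN3 (95% interval 0.913 to 1.23, limma, adjusted p = 0.985) and 0.941 in ISP8 cells (0.818 to 1.08, adjusted p = 0.892). The direction in DN3 cells turned to a log2 difference of -0.03 without pair 2, and that in ISP8 cells to 0.03 without pair 3. All 4 *Siva1* probe sets had an adjusted p of 0.867 or above between genotypes.

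*Zbtb42*, a zinc finger transcription factor gene, had 184, 243, 215 and 223 in wild-type and 129, 210, 221 and 215 in *PKBα*-/- DN3 cells. Its ISP8 values were 190, 150, 160 and 101 against 131, 157, 125 and 134. The groups overlapped in both subsets, and the *PKBα*-/- mouse of pair 1 was below its littermate in each. The fold was 0.881 in DN3 (0.656 to 1.18, limma, adjusted p = 0.985) and 0.928 in ISP8 cells (0.641 to 1.34, adjusted p = 0.956). Without pair 1 the log2 difference in ISP8 cells was 0.04.

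The next neighbour before *Akt1* in the set was *Inf2*, a formin that assembles and severs actin filaments. It had 27.3, 35.3, 51.6 and 39.2 in wild-type and 87.1, 76.0, 31.6 and 67.8 in *PKBα*-/- DN3 cells, and was higher in 3 of 4 pairs. The ISP8 values were 205, 113, 96.6 and 120 against 236, 132, 124 and 111, again with overlap. The log2 difference in DN3 cells, 0.72 (-0.27 to 1.70, limma, adjusted p = 0.972), was among the largest of the set and its interval was wide. It was 0.40 without pair 1 and 1.19 without pair 3. The difference in ISP8 cells was 0.17 (-0.34 to 0.67, adjusted p = 0.924). The second *Inf2* probe set, 1432184_a_at, had -0.45 in DN3 and 0.86 in ISP8 cells with adjusted p of 0.985 and 0.825.

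*Cep170b*, the gene of a centrosomal protein and the second neighbour after *Akt1*, had 352, 471, 441 and 354 in wild-type and 237, 466, 427 and 288 in *PKBα*-/- DN3 cells. Among ISP8 arrays it had 264, 269, 222 and 162 against 274, 247, 204 and 325. The DN3 values were lower in 4 of 4 pairs, by little in pairs 2 and 3, and the groups overlapped. The log2 difference was -0.23 in DN3 (-0.58 to 0.11, limma, adjusted p = 0.972) and 0.20 in ISP8 cells (-0.28 to 0.68, adjusted p = 0.894), and the latter was -0.07 without pair 4. Over the 5 members nearest on each side, 9 were tested in DN3 and 8 in ISP8 cells, and their median log2 differences were -0.18 and 0.00. The members farther away, 25 tested in each subset, had medians of 0.03 and 0.05.

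**Figure D2:**
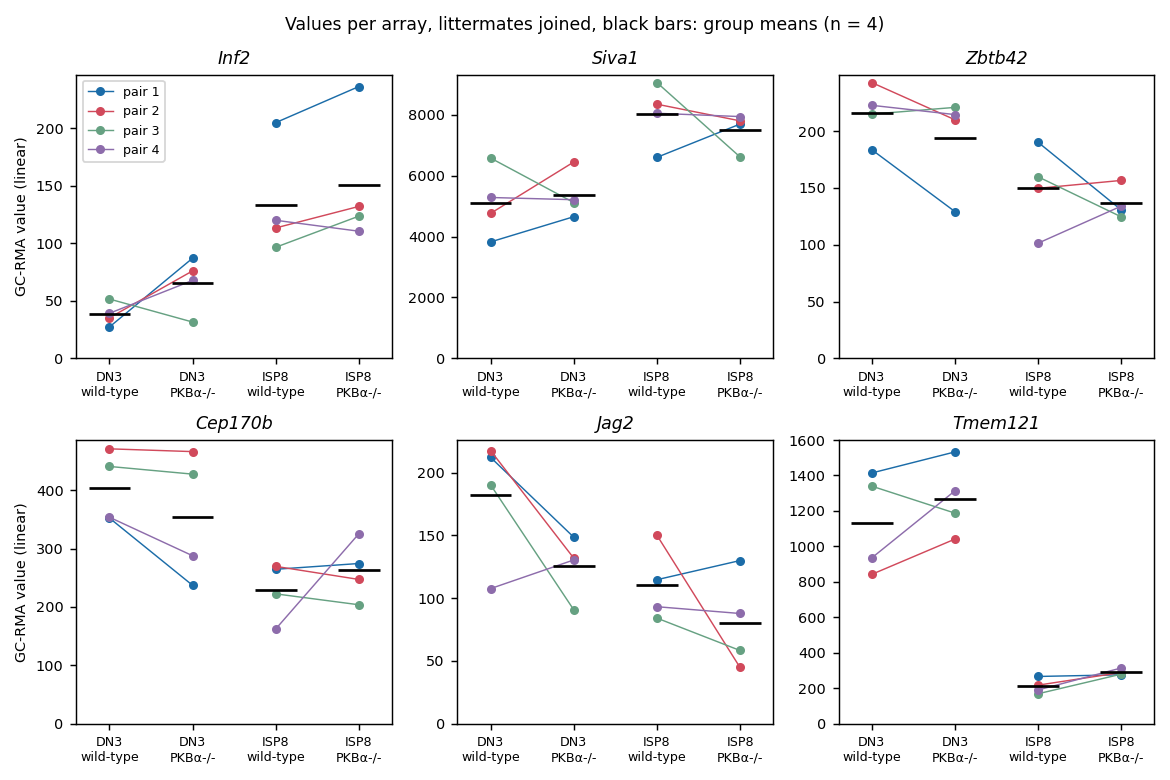
GC-RMA values on a linear scale (vertical axis) of 6 neighbours in each of the 4 groups, with lines joining littermates and black bars at the group means (n = 4). The genotype groups overlapped in every panel except *Tmem121* in ISP8 cells, where *PKBα*-/- arrays lay between 276 and 314 and wild-type arrays between 169 and 266.

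Among signalling and cell death genes, *Jag2*, a ligand of Notch receptors, had the lowest differences of the set. It had 212, 217, 190 and 108 in wild-type and 149, 132, 90.7 and 130 in *PKBα*-/- DN3 cells, and 115, 150, 84.1 and 93.2 against 130, 44.8, 58.3 and 87.8 in ISP8 cells. It was lower in 3 of 4 pairs of each subset, the exception being pair 4 in DN3 and pair 1 in ISP8 cells, and the groups overlapped. The log2 difference was -0.51 in DN3 (limma, adjusted p = 0.972), -0.54 in ISP8 (adjusted p = 0.845) and -0.53 in the mean of both subsets (-1.02 to -0.03, adjusted p = 0.995). Its second probe set, 1426431_at, had -0.37 in DN3 cells (adjusted p = 0.982), was too low for a test in ISP8 cells and had 0.24, the opposite direction, in the mean of both subsets (limma, adjusted p = 0.995). Leaving out a pair gave -0.32 (without pair 3) to -0.77 (without pair 4) for the first probe set in DN3 cells and -0.29 (without pair 2) to -0.73 (without pair 4) in the mean.

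*Gpr132*, a G protein-coupled receptor of lymphocytes, had 294, 194, 163 and 82.4 in wild-type and 155, 110, 186 and 101 in *PKBα*-/- DN3 cells. Its values on ISP8 arrays were 106, 113, 68.5 and 175 against 158, 235, 87.8 and 156. The direction differed between the subsets, with a log2 difference of -0.31 in DN3 and 0.45 in ISP8 cells, and neither passed (limma, adjusted p = 0.977 and 0.836). The ISP8 value was 0.25 without pair 2, and the second probe set, 1421755_at, had 0.10 in DN3 and 1.22 in ISP8 cells with adjusted p of 0.999 and 0.853. *Ppp1r13b*, which encodes the p53 partner ASPP1, had 2027, 2084, 2036 and 1782 in wild-type and 2072, 2115, 2376 and 2132 in *PKBα*-/- DN3 cells. The difference in DN3 cells, 0.13 on the log2 scale, was in the same direction in 4 of 4 pairs (limma, adjusted p = 0.972), and in ISP8 cells it was -0.12 (adjusted p = 0.878). *Tnfaip2*, a gene induced by tumour necrosis factor, was low, with 6.38 to 65.3 on the 16 arrays.

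Among the kinase and phosphatase genes, *Ppp2r5c*, which encodes a regulatory subunit of protein phosphatase 2A, was the most tightly bounded. It had 3929, 4548, 4454 and 4821 in wild-type and 4290, 4197, 4822 and 4704 in *PKBα*-/- DN3 cells, a 1.02-fold difference (95% interval 0.904 to 1.14). In ISP8 cells it had 6071, 5525, 5784 and 6355 against 6044, 5417, 6108 and 6015, a 0.994-fold difference (0.895 to 1.10). The genotype groups overlapped in both subsets. *Mark3*, a kinase that regulates microtubule binding proteins, had log2 differences of -0.07 and 0.05. *Mok*, a MAP kinase related gene, ranged from 6.65 to 74.8 and its interval reached from 0.399 to 3.18-fold in DN3 cells, and *Cdc42bpb* was above 20 on no array.

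Of the motor, cytoskeletal and trafficking genes, 0 passed between genotypes (limma). In DN3 cells 4 of 8 tested were higher in *PKBα*-/- mice with a median log2 difference of 0.01, and in ISP8 cells 7 of 9 with a median of 0.17. *Dync1h1*, the heavy chain of cytoplasmic dynein, had 4638, 4761, 5364 and 4757 in wild-type and 4689, 5003, 4626 and 3959 in *PKBα*-/- DN3 cells, and 4296, 5174, 3335 and 3929 against 4972, 4553, 4125 and 4966 in ISP8 cells. The groups overlapped in both, and the log2 difference was -0.10 in DN3 and 0.17 in ISP8 cells (limma, adjusted p = 0.977 and 0.831). *Klc1*, a kinesin light chain, had 497, 493, 507 and 420 in wild-type and 600, 521, 582 and 403 in *PKBα*-/- DN3 cells, and 512, 441, 354 and 487 against 422, 666, 609 and 495 in ISP8 cells. Its log2 difference was 0.12 and 0.28, with pair 4 lower in DN3 and pair 1 lower in ISP8 cells (limma, adjusted p = 0.985 and 0.846). *Pacs2*, a sorting protein gene, had 0.30 and 0.28, *Tecpr2*, an autophagy gene, 0.00 and 0.13, and *Zfyve21* 0.02 and -0.16. *Ahnak2* had -0.39 and -0.42 with a wide interval in ISP8 cells (0.235 to 2.36-fold), and *Amn* and *Kif26a* were low, with *Kif26a* above 20 on no array.

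Of the 6 chromatin, transcription and LIM protein genes, 0 passed between genotypes (limma), and 3 were higher and 3 lower in each subset. *Crip1*, a cysteine-rich LIM protein gene, had 22737, 16446, 19571 and 22496 in wild-type and 22218, 17104, 21328 and 21080 in *PKBα*-/- DN3 cells, with a fold of 1.01 (95% interval 0.927 to 1.10). In ISP8 cells it had 8461, 8582, 12320 and 11372 against 9286, 10792, 10663 and 8883, with a fold of 0.983 (0.849 to 1.14). The genotype groups overlapped in both subsets while the subsets lay far apart. *Rcor1*, a subunit of the CoREST repressor, had log2 differences of -0.09 and 0.05, *Mta1*, a subunit of the NuRD complex, 0.08 and 0.13, and *Brf1*, a factor of RNA polymerase III, -0.03 and 0.06. *Crip2* had 0.43 in DN3 and -0.24 in ISP8 cells (limma, adjusted p = 0.972 and 0.915), with an interval up to 2.06-fold in DN3 cells.

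Of the genes of RNA and genome maintenance, *Eif5*, a translation initiation factor, had log2 differences of -0.01 and 0.03. *Trmt61a*, a transfer RNA methyltransferase subunit, had 793, 1093, 659 and 891 in wild-type and 707, 832, 742 and 629 in *PKBα*-/- ISP8 cells. It was lower in all but pair 3, by 0.22 in the mean on the log2 scale (limma, adjusted p = 0.842), and the groups overlapped. In DN3 cells it had 669, 917, 906 and 696 against 708, 928, 877 and 757, a log2 difference of 0.04. *Cinp*, whose product binds cyclin-dependent kinase complexes, had 356, 514, 503 and 587 against 481, 532, 504 and 475 in DN3 and 758, 858, 995 and 685 against 788, 672, 736 and 658 in ISP8 cells. Its log2 differences were 0.05 and -0.20 (limma, adjusted p = 0.992 and 0.849), and *Xrcc3*, a recombination repair gene, had 0.12 and -0.05. *Tdrd9*, a helicase gene of the germ line, was above 20 on 2 of 16 arrays and was not tested.

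*Tmem121*, a transmembrane protein gene and the last of the set, had the smallest p of the neighbours in ISP8 cells and in the mean of both subsets, and *Jag2* had it in DN3 cells. It had 1414, 842, 1340 and 935 in wild-type and 1533, 1041, 1188 and 1313 in *PKBα*-/- DN3 cells, with overlap. In ISP8 cells it had 266, 217, 169 and 190 against 276, 289, 279 and 314, and each *PKBα*-/- array lay above all wild-type arrays. The log2 difference was 0.18 in DN3 (-0.07 to 0.44, limma, adjusted p = 0.972), 0.48 in ISP8 (0.06 to 0.90, adjusted p = 0.803) and 0.33 in the mean of both subsets (0.09 to 0.58, adjusted p = 0.880). The effect did not pass a test of its difference between subsets (log2 difference 0.29, limma, adjusted p = 0.810).

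*Bag5*, a cochaperone of Hsp70, had 1390, 1505, 1696 and 1388 in wild-type and 1457, 1580, 1926 and 1686 in *PKBα*-/- DN3 cells, and 1728, 1227, 1363 and 1700 against 1590, 1174, 1390 and 1466 in ISP8 cells. It was higher in all DN3 pairs and lower in all ISP8 pairs but pair 3, with log2 differences of 0.15 and -0.09 (limma, adjusted p = 0.972 and 0.893). With the mean of its probe sets, 1 of which was above 20 on only 2 of 16 arrays, the DN3 difference turned to -0.12. *Nudt14*, which encodes a UDP-sugar hydrolase, had 455, 520, 610 and 566 against 427, 610, 511 and 396 in DN3 and 245, 276, 262 and 265 against 322, 237, 312 and 239 in ISP8 cells. The groups overlapped, and the log2 differences were -0.16 and 0.07. *Ckb*, the brain type creatine kinase, had -0.38 and -0.29 with values of 15.1 to 106, *Btbd6* 0.01 and 0.08, *Wdr20* 0.03 and -0.09, and *Aspg*, an asparaginase gene, was above 20 on 5 of 16 arrays. *Tmem179* had the largest difference in DN3 cells, 0.88 (-1.06 to 2.82), which rested on pair 3, where the wild-type value was 1.48 and the *PKBα*-/- value 33.8.

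No neighbour had a genotype effect that passed a test of its difference between DN3 and ISP8 cells. Of 35 tested, 0 had an adjusted p under 0.05 (limma) and 0 an unadjusted p under 0.05, where 0.00271% and 6.74% of all probe sets did. The smallest p was that of *Dync1h1*, with a log2 difference of 0.27 between the effects (-0.01 to 0.54, limma, adjusted p = 0.742).

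The subset, in contrast to the genotype, gave passing neighbours, in a share close to that of all genes. From DN3 to ISP8 in wild-type mice, 12 of the 34 tested passed (limma, adjusted p under 0.05), 35.3%, where 28.9% of all probe sets and 33.7% at 1 probe set per gene did. There were 4 that rose (11.6% of all probe sets did), *Siva1*, *Ppp2r5c*, *Inf2* and *Cinp*, and 8 that fell (17.3% of all probe sets did), *Tmem121*, *Crip1*, *Nudt14*, *Ppp1r13b*, *Cep170b*, *Ahnak2*, *Zfyve21* and *Btbd6*. In bulk samples, fewer cells that express a gene and less RNA per cell cannot be told apart. *Akt1* itself was 0.37 higher in ISP8 cells on the log2 scale (limma, adjusted p = 0.0414).

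*Tmem121* fell by 2.41 on the log2 scale from DN3 to ISP8 cells (95% interval -2.82 to -2.01, limma, adjusted p = 6.16e-07), the largest change among those that passed, from 842 to 1414 down to 169 to 266. *Crip1* fell to 0.499-fold (adjusted p = 6.77e-06), *Nudt14* to 0.490-fold (adjusted p = 0.00050) and *Ppp1r13b* to 0.578-fold (limma, adjusted p = 0.000535), and for each the wild-type groups did not overlap. Non-overlap of the 2 wild-type groups held for 11 neighbours (26.7% of all probe sets). *Siva1* rose by 0.67 (0.47 to 0.86, limma, adjusted p = 7.9e-05), *Ppp2r5c* by 0.42 (adjusted p = 0.00313), *Inf2* by 1.78 (adjusted p = 0.00402) and *Cinp* by 0.76 (adjusted p = 0.00403). With the mean of their probe sets *Inf2* and *Cinp* had log2 changes of 0.91 and 0.39 and did not pass, and *Ppp2r5c* turned to -0.37, and 4 of its 7 probe sets fell. *Ahnak2* fell by 2.29, from 96.0 to 127 in wild-type DN3 down to 6.58 to 49.4 in wild-type ISP8 cells (limma, adjusted p = 0.00402). *Btbd6* was just inside the threshold with a log2 change of -0.55 and an adjusted p of 0.0497, and *Jag2*, at -0.70 and 0.0680, just outside it.

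The changes were also counted by side. After *Akt1*, 6 of 13 tested passed (46.2%) and all 6 fell, namely *Cep170b*, *Ahnak2*, *Nudt14*, *Btbd6*, *Crip1* and *Tmem121*, and the median log2 change was -0.60. Before *Akt1*, 6 of 21 passed (28.6%), 4 of them higher and 2 lower in ISP8 cells, with a median of 0.02. Over all genes tested 33.7% passed and the median was -0.06, and over all probe sets 11.6% rose and 17.3% fell. Of those that rose, *Inf2* and *Cinp* did not pass with the mean of their probe sets, and 4 of 7 *Ppp2r5c* probe sets passed lower. Other genes of the interval, described below, passed in both directions on each side (limma). *Hsp90aa1* and *Zfp839*, before *Akt1*, had log2 changes of 0.38 and -0.77, and *Cdca4* and *Pld4*, after it, 1.16 and -6.05. The difference between the sides is a description and was not tested.

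**Figure D3:**
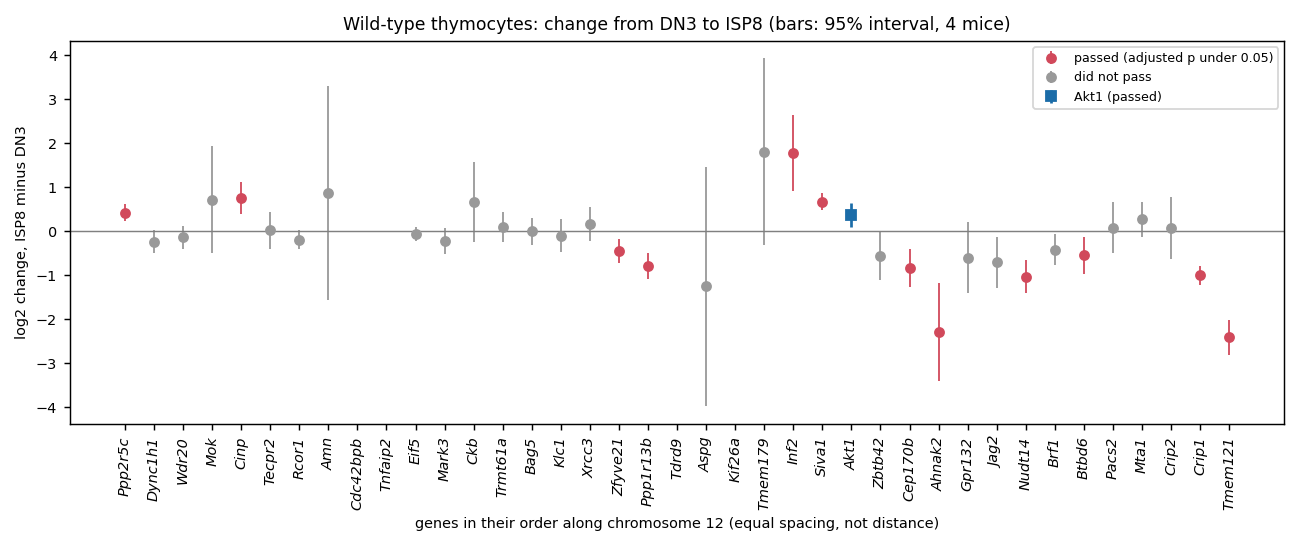
Log2 change from DN3 to ISP8 in wild-type mice (vertical axis) of each tested neighbour by gene order along chromosome 12 (horizontal axis, equal spacing), with 95% intervals over 4 mice. Red points passed at an adjusted p under 0.05, grey points did not, and the blue square is *Akt1*. The 4 neighbours that rose by the probe set used, among them *Ppp2r5c* with other probe sets that fell, all lie before *Akt1*. Of the 8 that fell, 6 lie after it. Other genes of the interval, not shown, passed in both directions on each side.

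All probe sets of the neighbours were then compared. Between genotypes, 0 of 64 probe sets of the set passed in DN3 and 0 of 60 in ISP8 cells (limma), beside 0.0383% and 0.0147% of all probe sets. At an unadjusted p under 0.05 there were 1 and 2, or 1.56% and 3.33%, beside 4.83% and 6.08%. In DN3 cells this was 1440113_at, a second *Mta1* probe set, with 63.9, 20.5, 36.0 and 41.8 in wild-type and 5.44, 10.5, 2.5 and 5.5 in *PKBα*-/- cells. All *PKBα*-/- values lay under 20, the level of the filter, so that no size is given for the difference (limma, adjusted p = 0.972), and the probe set used for *Mta1* had 0.08. Those in ISP8 cells were *Tmem121* and 1456256_at of *Eif5*, with -0.32 (limma, adjusted p = 0.796).

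From DN3 to ISP8, 16 neighbours had several tested probe sets, and all of a gene's probe sets had 1 direction for 9 of the 16. The 4 probe sets of *Siva1* all rose, by 0.49 to 0.67 on the log2 scale. Of the 7 probe sets of *Ppp2r5c*, 2 rose, 1425542_a_at by 0.42 and 1427003_at by 0.69 (limma, adjusted p = 0.00313 and 0.000714). The probe sets 1425726_x_at, 1434205_at, 1434206_s_at and 1455520_at fell, with log2 changes of -0.90, -0.38, -0.71 and -1.46 (limma, adjusted p = 0.0177, 0.0195, 0.00623 and 0.00338). The remaining one, 1425725_s_at, had -0.27 (adjusted p = 0.555). *Ppp2r5c* was the only neighbour with probe sets that passed in both directions, and the mean over its probe sets was -0.37, opposite to the probe set used. In *Eif5*, 1433631_at and 1454663_at rose by 0.64 and 0.48 (limma, adjusted p = 0.000567 and 0.00843), while the probe set used had -0.07. The second *Jag2* probe set fell by 3.13 (limma, adjusted p = 0.00192), from 54.5 to 138 in wild-type DN3 down to 5.95 to 26.5 in wild-type ISP8 cells. Of these ISP8 values 3 were under 20, so that the size of the fall depends on background values.

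**Figure D4:**
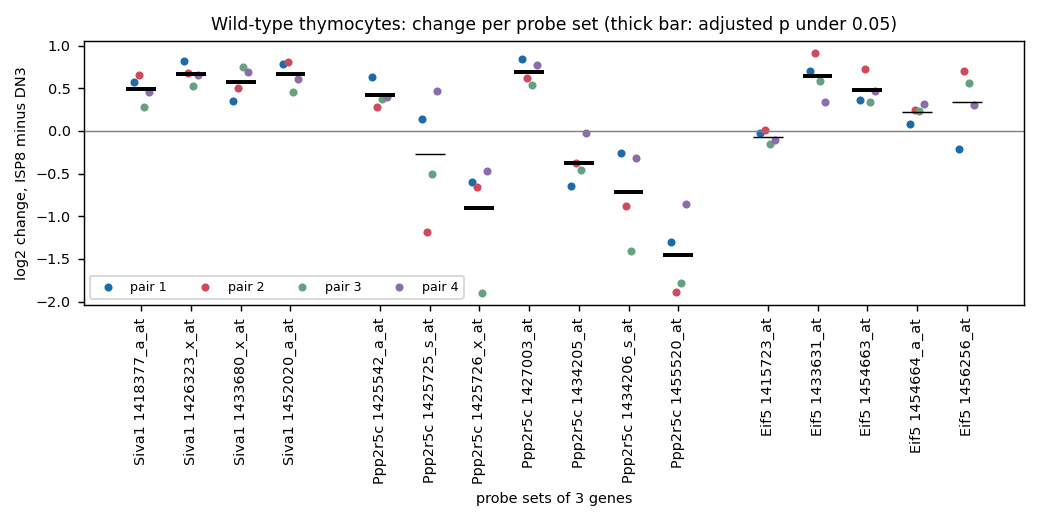
Log2 change from DN3 to ISP8 in wild-type mice (vertical axis) for each probe set of *Siva1*, *Ppp2r5c* and *Eif5* (horizontal axis). Points are the mice of the 4 pairs, bars their mean, thick bars passed at an adjusted p under 0.05, and only *Ppp2r5c* shows passing probe sets on both sides of zero, from -1.46 to 0.69.

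A further 20 genes that RefSeq places in the same interval had a probe set of their own, and they served for comparison. None passed between genotypes, of 15 tested in DN3 and 14 in ISP8 cells (limma), beside 0.0383% and 0.0147% of all probe sets. At an unadjusted p under 0.05 there were 2 in DN3 cells, *Ankrd9* and *Lbhd2*, or 13.3% beside 4.83% of all probe sets, and 1 in ISP8 cells, *Atp5mpl*, or 7.14% beside 6.08%. In the mean of both subsets there were 3 of 14, *5033406O09Rik*, *2810029C07Rik* and *Atp5mpl*, or 21.4% beside 4.9%. In the difference between subsets there were 2 of 16, *Hsp90aa1* and *Ankrd9*, or 12.5% beside 6.74%. The genotype groups did not overlap for 1 in DN3, *Ankrd9* (1.74% of all probe sets), and 2 in ISP8 cells (2.91%). These shares were not tested. *2810029C07Rik* was lower in *PKBα*-/- mice in 4 of 4 pairs of both subsets. Of all probe sets tested in both subsets, 1.11% kept 1 direction in all 8 differences. In ISP8 cells *2810029C07Rik* was too low to be tested, with 9.24 to 41.9 in wild-type and 2.26 to 26.3 in *PKBα*-/- mice. *Lbhd2* had a log2 difference of -0.85 in DN3 and *Atp5mpl* one of -0.29 in ISP8 cells (limma, adjusted p = 0.972 and 0.780), and these genes were named after their values were seen. The lowest p in DN3 cells was that of *Ankrd9*, which had 10.95, 5.47, 7.98 and 7.05 in wild-type and 71.3, 38.2, 28.3 and 52.7 in *PKBα*-/- cells. All its wild-type values lay under 20, so that it was tested only through the *PKBα*-/- group and no size is given for the difference (limma, adjusted p = 0.972), and in ISP8 cells it was too low to be tested. From DN3 to ISP8, 10 of 12 passed, 3 higher and 7 lower, or 83.3%, beside 33.7% at 1 probe set per gene over all genes. *Pld4*, which lies after *Cep170b*, fell by 6.05 on the log2 scale (limma, adjusted p = 1.05e-09), from 2979 to 6226 down to 60.7 to 92.6, and had genotype differences of -0.06 and 0.21. *Cdca4*, a cell cycle gene 1 place before *Gpr132*, rose by 1.16 (adjusted p = 1.2e-06).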

How the data were processed

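The deposited intensity values are GC-RMA estimates on a linear scale, which the authors background-corrected and normalized after a 2-cycle amplification of the RNA and hybridisation to Affymetrix arrays. The number of arrays limits the precision, and values of different probe sets are not comparable as levels. Probe sets were named through the platform annotation, in which 34958 carry 1 symbol, 932 several and 9211 none. Gene order and promoters were taken from RefSeq, GRCm38.p6, since no source used here names a build. The members, lists and alternatives were chosen with earlier results of these data known.

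Values were log2 transformed with no constant added. A probe set was tested when it was above 20 in at least 1 mouse of a pair in at least 3 of 4 pairs, so that low members were left out. Differences were fitted in limma (version 3.58.1, R 4.3.3), the littermate pair serving as block and the spread being moderated, and Benjamini-Hochberg adjustment ran over all probe sets tested, with 0.05 as threshold. The pairs come from the labels. Deviations from the group mean correlated at 0.376 to 0.440 within pairs and -0.269 to 0.069 across pairs in DN3, and at 0.0920 to 0.226 and -0.198 to 0.055 in ISP8 cells. Genes named with values on every array were the nearest 2 members on each side of *Akt1*, the 4 with the smallest p in each genotype fit, and, from DN3 to ISP8, the 4 with the smallest p in each direction. Of the 38 probe sets used, 4 end in _s_at and 1 in _x_at, which may bind other transcripts. Fits were tested on simulated data. As alternatives, the filter was dropped or set at 100, a constant of 20 was added, values were quantile normalized, the block was left out, moderation was made robust, the probe sets of a gene were averaged, the test and selection in the methods were used, all 16 arrays were fitted together and each pair was left out. The selection was run without the detection p of the methods, so that its counts are not those of the paper. Figures used matplotlib 3.10.9.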

Additional observations from a re-analysis of the deposited data

Results flagged for a closer look

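Among the 16 named neighbours and *Akt1*, 3 of the 68 groups of 4 arrays held a value that lay far from the other 3 by Dixon's criterion, and chance gives about 5% of groups. *Ppp2r5c* was lowest in the *PKBα*-/- ISP8 cells of pair 2, with 5417. *Klc1* was lowest in the wild-type DN3 cells of pair 4, with 420. *Zbtb42* was lowest in the *PKBα*-/- DN3 cells of pair 1, with 129.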

How the results depend on the processing

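No neighbour passed between genotypes under any alternative run, in either subset or in their mean. From DN3 to ISP8 the number that passed was 12, and 10 to 12 when a pair was left out, 14 with a filter at 100, 11 without a filter, 10 without the block and 17 with both genotypes. The counts over all probe sets were less stable. In DN3 cells 13 probe sets passed, and 8 without a filter, 27 with 20 added, 1 with no replicate block for the pairing, 0 by the methods' t-test after Benjamini-Hochberg, 458 by the methods' selection, 2 in 1 fit of 16 arrays and 12 to 40 when a pair was left out, the highest without pair 2. In ISP8 cells 5 passed, and 3 without a filter, 1 with a filter at 100, 2 with no replicate block, 0 by the methods' t-test, 521 by the methods' selection, 14 in 1 fit of 16 arrays and 1 to 12 when a pair was left out. In the mean of both subsets 13 passed, and 7 with a filter at 100, 24 with 20 added, 2 with no replicate block, 23 with robust moderation and 8 to 18 when a pair was left out. The difference between subsets gave 1, and 0 with no replicate block or robust moderation and 1 to 5 when a pair was left out. The methods' selection took 0 neighbours, beside 1.35% of all probe sets in DN3 and 1.53% in ISP8 cells.

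Leaving out a pair moved the median genotype difference of the neighbours in ISP8 cells, 0.05, to -0.040 at the lowest and 0.036 at the highest. It turned the direction of *Siva1* in DN3 cells (-0.033 without pair 2, up to 0.23) and in ISP8 cells (-0.19 up to 0.035 without pair 3), of *Zbtb42* in ISP8 cells (-0.28 up to 0.036 without pair 1) and of *Cep170b* in ISP8 cells (-0.066 without pair 4, up to 0.31). With the mean of its probe sets *Bag5* turned to -0.12 in DN3 cells. With the mean of its probe sets, *Ppp2r5c* turned to -0.37 from DN3 to ISP8, *Inf2* had 0.91 and *Cinp* 0.39 without passing, and *Akt1* had -3.90 in DN3 cells (limma, adjusted p = 0.0551). Robust moderation also left *Akt1* in DN3 cells above the threshold (limma, adjusted p = 0.0700). The cause was not tested. With 4 pairs, the 95% interval of 12 neighbours in DN3 and 14 in ISP8 cells reached beyond 1.5-fold.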
